A study of Mus musculus with 8 samples.

Results

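The synaptic vesicle release machinery is the set of proteins that dock, prime and fuse transmitter vesicles at the presynaptic membrane. Its transcripts were followed here in the striatum of mice labelled PGC-1α null and of wild-type mice, and no probe of the set passed the test between them. PGC-1α, encoded by Ppargc1a, is a transcriptional coactivator best known for driving genes of mitochondrial metabolism. Members were chosen by gene symbol: those that start with Syt, Cplx, Stx, Vamp, Snap, Sv2, Rims, Rab3 or Unc13, together with Syn1, Syn2, Syn3, Syp, Bsn, Pclo and Otof, and without Syt2 and Cplx1. The name rule found 139 probes of 95 genes among the 25697 probes of the array. Detection p-values, which set a probe against the background of its own array, had to be under 0.05 on 4 or more of the 8 arrays for a probe to count. That left 97 probes of 69 genes, out of 13413 kept probes of 10008 genes in all.

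Both groups were C57BL/6 mice at postnatal day 30, with 4 arrays of PGC-1α null and 4 arrays of PGC-1α wild-type striatum. The sample labels name medium spiny neurons, the projection neurons of the striatum, but the RNA came from striatal tissue, so other cells contributed to it. The title of the series speaks of a cell specific deletion and the samples are labelled null, and neither the deleted exons nor a Cre driver is given in the sources used here. Nothing in the labels says that replicates were separate animals, so p-values measure only the spread between these samples. In bulk RNA, fewer cells of a type and less RNA per cell cannot be told apart. All null arrays sat at the last 4 positions of the one chip and all wild-type arrays at the first 4, so chip position and genotype cannot be told apart.

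When an action potential reaches the terminal, calcium enters near the active zone. There it binds synaptotagmins on the vesicle, and a complex of vesicle VAMP with plasma membrane syntaxin and SNAP-25 draws the membranes together. Munc13 proteins (Unc13 genes) help assemble that complex, complexins hold and release it, RIM and Rab3 tether the vesicle, and synapsins tie reserve vesicles to one another. In the striatum this machinery lies in the terminals of local medium spiny neurons and interneurons. Terminals of cortical and dopaminergic axons are there too, but their cell bodies lie elsewhere and most of their RNA with them.

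Across the 8 arrays the mean raw intensity lay between 295 and 499 and the number of detected probes between 13009 and 13910. Null replicate 2 had the lowest mean correlation with the other arrays, 0.977. The sexes, as read from Xist and the Y-linked Eif2s3y, were not balanced. Eif2s3y was high and Xist low on 3 of the null arrays but on 1 of the wild-type ones. The probe of Ddx3y, also Y-linked, read 9.64 to 11.24 across all 8 arrays and did not separate the sexes. Ppargc1a itself read 7.30, 8.09, 8.10 and 7.43 on the null arrays, against 7.35, 7.22, 7.90 and 7.98 on the wild-type arrays (log2 normalised intensity, the unit of every level below). The groups overlapped and the difference was 0.12 (SE 0.23, limma adjusted p = 0.94). Since the deleted part of the gene is not given, this probe does not check the genotype. The defining markers of medium spiny neurons were present: 15 of the 19 listed were measured, and only Adcy5 was on the array without passing detection.

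Promoters of 6 members are shown to place the genes in their sequence context. They are Syn1, which carried 3 of the searched elements, Stx12, chosen after the search for its NRF1 element, and Rab3gap2, Vamp8, Stx1a and Unc13b, whose values are described below. Each run is the 250 bases before the annotated start, read 5′ to 3′ on the gene's own strand, from RefSeq on GRCm38.p6. Capitals mark every match to a searched motif, on either strand. Syn1 lies at chrX:20920919-20921168 (minus strand), Stx12 at chr4:132884459-132884708 (minus), Rab3gap2 at chr1:185203918-185204167 (plus), Vamp8 at chr6:72390668-72390917 (minus), Stx1a at chr5:135023232-135023481 (plus) and Unc13b at chr4:43058703-43058952 (plus).
Syn1: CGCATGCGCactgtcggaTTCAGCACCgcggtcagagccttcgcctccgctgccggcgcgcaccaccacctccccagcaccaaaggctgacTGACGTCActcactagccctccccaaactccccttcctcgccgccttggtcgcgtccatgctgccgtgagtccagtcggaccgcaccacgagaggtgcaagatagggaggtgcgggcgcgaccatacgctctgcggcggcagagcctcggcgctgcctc
Stx12: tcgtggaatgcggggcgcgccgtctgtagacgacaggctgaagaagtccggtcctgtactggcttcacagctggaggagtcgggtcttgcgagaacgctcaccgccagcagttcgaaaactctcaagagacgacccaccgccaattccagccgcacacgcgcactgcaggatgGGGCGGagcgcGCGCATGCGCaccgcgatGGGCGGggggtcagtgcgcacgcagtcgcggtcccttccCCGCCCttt
Rab3gap2: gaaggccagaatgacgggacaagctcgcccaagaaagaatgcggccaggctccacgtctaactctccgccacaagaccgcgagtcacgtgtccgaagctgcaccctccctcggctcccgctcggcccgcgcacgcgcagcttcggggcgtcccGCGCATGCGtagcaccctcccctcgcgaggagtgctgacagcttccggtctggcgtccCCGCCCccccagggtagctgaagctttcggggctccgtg
Vamp8: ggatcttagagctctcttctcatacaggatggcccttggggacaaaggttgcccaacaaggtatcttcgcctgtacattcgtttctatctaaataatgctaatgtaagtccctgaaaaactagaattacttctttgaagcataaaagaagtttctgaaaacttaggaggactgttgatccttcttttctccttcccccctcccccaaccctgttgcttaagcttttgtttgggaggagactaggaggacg
Stx1a: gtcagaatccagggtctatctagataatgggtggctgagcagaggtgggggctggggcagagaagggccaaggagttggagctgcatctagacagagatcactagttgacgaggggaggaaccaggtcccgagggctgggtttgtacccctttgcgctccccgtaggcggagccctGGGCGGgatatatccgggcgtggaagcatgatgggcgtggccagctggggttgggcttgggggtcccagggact
Unc13b: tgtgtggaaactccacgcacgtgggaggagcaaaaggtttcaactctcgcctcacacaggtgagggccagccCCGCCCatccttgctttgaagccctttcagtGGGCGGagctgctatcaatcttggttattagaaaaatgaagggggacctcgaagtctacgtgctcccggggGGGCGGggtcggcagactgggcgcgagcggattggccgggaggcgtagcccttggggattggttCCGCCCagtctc
In Syn1 the capitals are the core of the NRF1 element, GCGCATGCG or its complement, at -250, the 5′ part of the REST element, TTCAGCACC, at -232 and the cAMP response element, TGACGTCA, at -159 from the start. REST is the repressor that keeps neuronal genes silent outside neurons, and NRF1 is a nuclear regulator of respiratory chain genes. Stx12 holds the NRF1 core on both strands, in one overlapping run, and 3 GC boxes (GGGCGG, or CCGCCC on the other strand). Rab3gap2 holds the NRF1 core at -97 and 1 GC box. Unc13b held 4 GC boxes, Stx1a 1, and Vamp8 none of the searched motifs, with 43.6% G and C against 60.8% in Unc13b, 62.0% in Stx1a, 66.0% in Stx12, 68.4% in Rab3gap2 and 68.0% in Syn1.

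The search covered the promoters, 250 bases before to 50 after the start, of the 57 kept member genes that the RefSeq table holds, and of 6408 genes kept on the array. The estrogen-related receptor element TCAAGGTCA, bound by receptors that PGC-1α coactivates, was in 0 of 57 member promoters and 0.41% of the array's. The NRF1 core was in 4 (7.02%), Stx12, Snap23, Rab3gap2 and Syn1, and in 4.17% of the array's. The cAMP response element was in 2 (3.51%), Syn1 and Snapc5, and in 3.7% of the array's. TTCAGCACC was in 1 (1.75%), Syn1, and in 0.59% of the array's, and the 3′ part of the REST element, GGACAGNGC, was in 1 (1.75%), Sv2b, and in 2.89%. GC boxes were in 45 (78.95%) and in 69.51%, and the TATA box TATAAA was in 5 (8.77%) and in 9.13%. These letter matches describe the windows only.

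None of the 97 member probes differed between null and wild-type striatum at a limma adjusted p under 0.05, and none of the 13413 kept probes did (0%). The smallest adjusted p was 0.66 among members, for Otof and Vamp8, and 0.59 among all probes. Differences of members, null minus wild-type on the log2 scale, ran between -0.62 and 0.51 with a median of 0.04, against a median of -0.00 for all kept probes. Of the members, 58 lay higher in null arrays and 39 lower, or 59.8% higher against 49.1% of all kept probes, of which 50.9% were lower. At an unadjusted p under 0.05 there were 10 members (10.3%), against 6.9% of all kept probes; 6 of them were higher and 4 lower, against 3.21% and 3.7% of all probes. The groups did not overlap for 6 members (6.19%) and for 4.14% of all kept probes. Vamp8 and Sv2b lay wholly higher (1.54% of all probes did) and Otof, Rab3gap2, Stxbp4 and 1 other probe wholly lower (2.59%). Without the Rab30 to Rab39 and Snapc genes, which share only letters with the release genes, 45 of 79 probes were higher and the median was 0.03. Those probes still included SNAREs of other membranes, such as Stx6, Stx7 and Vamp4 of the trans-Golgi and endosomes. The lean to higher values rested on null replicate 2: without it, 48 of 97 members were higher and the median was -0.01.

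**Figure D1:**
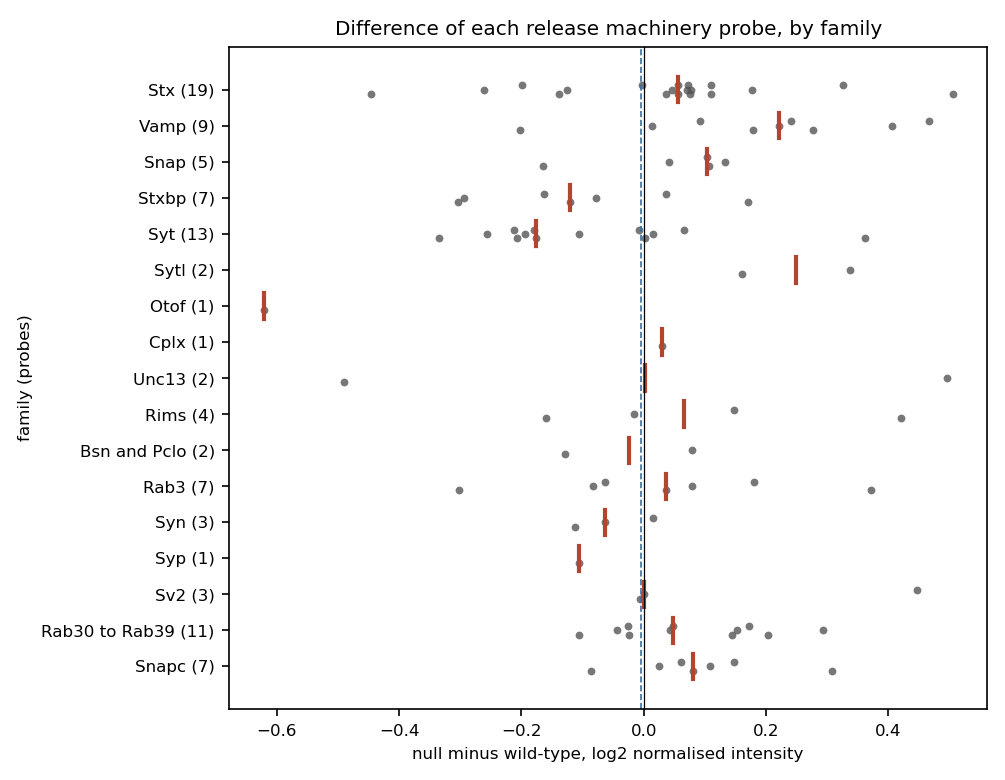
Difference of each of the 97 member probes, null minus wild-type in log2 normalised intensity (horizontal axis), by family (vertical axis, with the number of probes). Grey points are probes, red bars family medians, and the dashed blue line the median of all kept probes. Vamp probes lie mostly right of 0 (median 0.22) and Syt probes mostly left of it (median -0.18), while no probe passed the test.

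Syntaxins are SNAREs of the plasma membrane, endosomes, Golgi and other membranes, and vesicle SNAREs pair with them. Of 19 kept Stx probes from 12 genes, 13 lay above 0 (higher in null) and 6 below, and their median difference was 0.06. Stx1a, the neuronal plasma membrane syntaxin, read 10.55, 11.73, 10.31 and 10.77 on null arrays, against 9.63, 10.68, 10.17 and 10.86 on wild-type arrays. Null replicate 2 was the highest and wild-type replicate 1 the lowest, the widest range of any member, and the groups overlapped. The means were 10.84 ± 0.62 in null and 10.33 ± 0.55 in wild-type arrays (SD, n = 4 each), a difference of 0.51 (SE 0.31, limma adjusted p = 0.77). It was 0.21 without null replicate 2 and -0.03 without both of those arrays. Stx1b1, its close relative, was not detected on any array.

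Stx4a, a plasma membrane syntaxin outside the synapse, differed by 0.33 (SE 0.15, limma adjusted p = 0.72). Its null values were 7.22, 7.49, 7.49 and 7.13, against wild-type values of 7.07, 6.66, 7.02 and 7.28. Only wild-type replicate 4 reached into the null range. One of 4 probes of Stx8, an endosomal syntaxin, read 5.93, 5.74, 5.87 and 6.43 in null and 6.29, 6.94, 6.17 and 6.36 in wild-type arrays. That probe differed by -0.45 (SE 0.19, unadjusted p = 0.0394, limma adjusted p = 0.71), while the other Stx8 probes differed by 0.06 to 0.07. Without background correction the first probe was at -0.20. The Stx8 probes do not give one direction for the gene. Stx6 and Stx7, syntaxins of the trans-Golgi and endosomes, differed by -0.13 (brighter probe) and 0.11.

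Vesicle SNAREs, the Vamp genes, had 8 of 9 probes higher in null arrays, from 5 genes, with a median difference of 0.22. None passed the test, and the median ranged between 0.12 and 0.32 when single arrays were left out. Vamp8, an endosomal and secretory granule SNARE, had null values of 6.04, 6.23, 5.80 and 6.08, against wild-type values of 5.60, 5.52, 5.71 and 5.46 at one probe. Every null array lay above every wild-type array, with means of 6.04 ± 0.18 and 5.57 ± 0.11 (null and wild-type, SD, n = 4 each). The difference was 0.47 (SE 0.13, 95% interval 0.19 to 0.74, unadjusted p = 0.00327, limma adjusted p = 0.66), a 1.38-fold ratio. It was 0.18 without background correction. The other Vamp8 probe read 7.12, 6.71, 6.78 and 6.98 in null and 6.75, 6.54, 6.49 and 6.69 in wild-type arrays, with overlap and a difference of 0.28 (SE 0.13, limma adjusted p = 0.72).

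Vamp3, the widely expressed cellubrevin, had 9.44, 9.30, 9.04 and 9.33 in null and 8.98, 8.76, 8.64 and 9.12 in wild-type arrays. The null values overlapped with wild-type replicate 4 only, and the difference was 0.41 (SE 0.14, unadjusted p = 0.0145, limma adjusted p = 0.70). Its other probe differed by 0.18 (SE 0.17). Vamp2, the SNARE of most brain synapses, read 11.72, 12.17, 12.04 and 11.93 in null arrays, against 11.77, 11.92, 11.89 and 11.91 in wild-type arrays. Those groups overlapped and differed by 0.09 (SE 0.12, limma adjusted p = 0.89). Vamp1, its relative, had probes at 0.22, 0.24 and -0.20, and Vamp4, of the trans-Golgi, was at 0.01 (SE 0.11).

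Of the genes named Snap, with Snapc apart, 4 of 5 kept probes were higher in null arrays, with a median difference of 0.10. Only Snap23 and Snap29 among them are relatives of SNAP-25. Snap25 itself, the neuronal member, was not well above background on any array, so no difference is given for it. Snap29 and Snap23, relatives with wider expression, differed by 0.13 (SE 0.12) and 0.04. Snapin, a SNAP-25 binding protein, differed by 0.10 and the probes of Snap91, the clathrin assembly protein AP180, by -0.17 and 0.11.

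**Figure D2:**
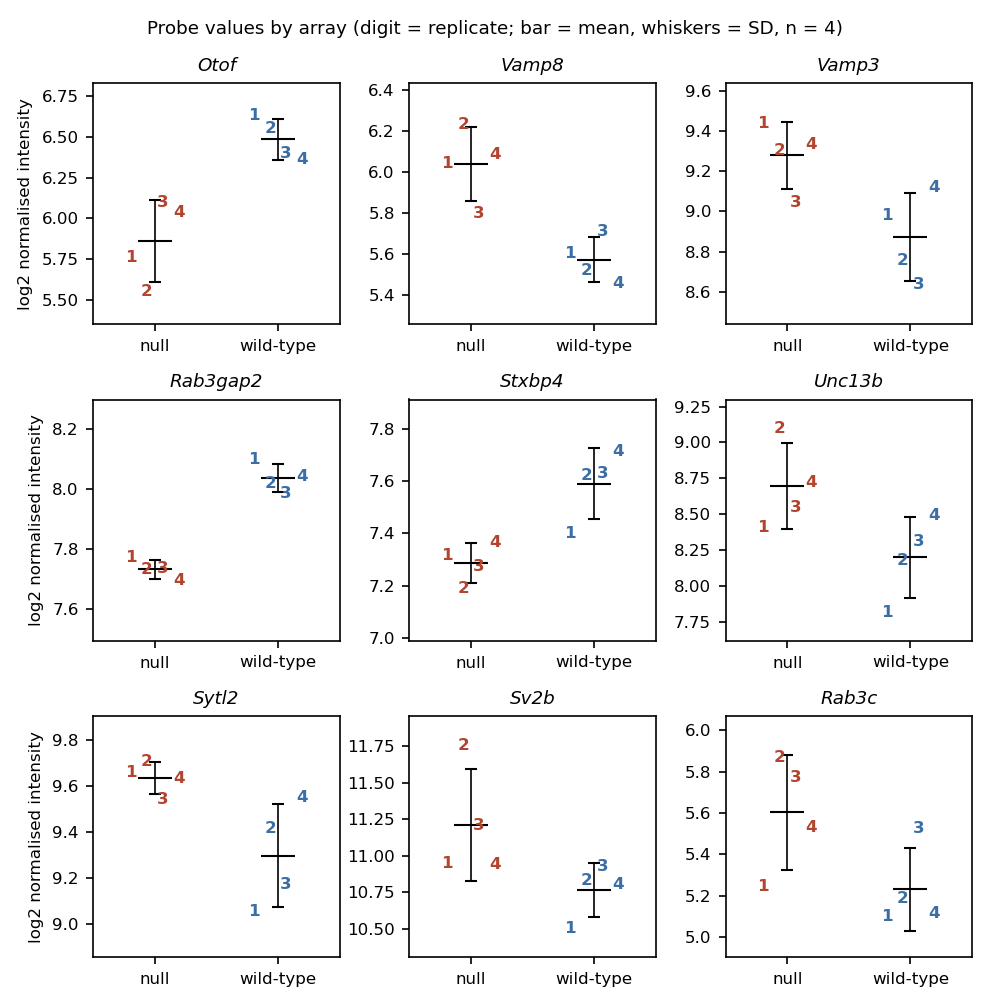
Log2 normalised intensity (vertical axes, not starting at 0) of 9 member probes in null (red, left) and wild-type (blue, right) arrays; digits are replicate numbers, bars means and whiskers SD (n = 4 each). Each gene is shown by its probe with the smallest p. The groups do not overlap for Otof, Vamp8, Rab3gap2, Stxbp4 and Sv2b.

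Stxbp genes encode proteins that bind syntaxins and govern SNARE assembly; 5 of their 7 probes were lower in null arrays and the median was -0.12. Stxbp4, a syntaxin 4 binding protein, read 7.32, 7.19, 7.27 and 7.37 in null and 7.40, 7.62, 7.63 and 7.71 in wild-type arrays. Every null array lay below every wild-type array at this probe, by -0.30 on average (SE 0.12, unadjusted p = 0.0224, limma adjusted p = 0.70), and by -0.20 without background correction. The other Stxbp4 probe differed by 0.04 (SE 0.13). Stxbp2, a syntaxin-binding protein of non-neuronal secretory cells, differed by 0.17 and Stxbp5l, a tomosyn, by -0.12.

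Munc13 genes, which prime vesicles, had differences of opposite sign, neither past the test. Unc13b read 8.41, 9.10, 8.55 and 8.72 in null and 7.82, 8.18, 8.31 and 8.49 in wild-type arrays. Null replicate 2 was the highest and wild-type replicate 1 the lowest, null replicate 1 lay under wild-type replicate 4, and the means were 8.70 ± 0.30 and 8.20 ± 0.28 (null and wild-type, SD, n = 4 each). The difference was 0.50 (SE 0.18, 95% interval 0.10 to 0.89, limma adjusted p = 0.70), and 0.23 without those arrays. Unc13c, known mainly from cerebellar granule cells, read 7.88, 6.56, 8.16 and 7.88 in null and 8.37, 7.88, 8.46 and 7.74 in wild-type arrays. Null replicate 2 alone lay low. The difference was -0.49 (SE 0.31, limma adjusted p = 0.77), and -0.14 without that array. Cplx2, the one complexin with a kept probe, read 11.808, 11.504, 11.901 and 11.797 in null and 11.638, 11.495, 12.004 and 11.756 in wild-type arrays. Its groups overlapped, with a difference of 0.03 (SE 0.14, limma adjusted p = 0.98).

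Synaptotagmins are a family that includes the calcium sensors of release. Of 13 kept probes from 10 genes, 9 lay below 0 and 4 above, at a median difference of -0.18, and none passed. That median ranged between -0.21 and -0.0995 with 1 array left out, nearest to 0 without null replicate 2, and was -0.0753 without background correction. Syt1, the fast sensor of most forebrain synapses, read 11.43, 12.11, 11.44 and 11.72 in null and 11.42, 11.75, 11.64 and 11.63 in wild-type arrays. The groups overlapped and differed by 0.07 (SE 0.16, limma adjusted p = 0.95). Syt5 read 9.23, 9.58, 9.34 and 9.39 in null and 9.51, 9.64, 9.63 and 9.53 in wild-type arrays, or -0.19 on average (SE 0.12, limma adjusted p = 0.76). Only null replicate 2 overlapped the wild-type values. Syt4, a synaptotagmin of dense core vesicles, differed by -0.18 (SE 0.13), and both probes of Syt6 (-0.33 and -0.21) and of Syt12 (-0.21 and -0.26) lay lower. Syt13 lay higher on average, at 6.25, 7.08, 5.70 and 6.37 in null and 5.61, 6.37, 5.78 and 6.20 in wild-type arrays. Its difference of 0.36 (SE 0.26, limma adjusted p = 0.79) was 0.12 without null replicate 2. Syt11 probes lay at 0.02 and -0.01, and Syt7, with 3 probes, was not detected on any array.

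Otof, which encodes otoferlin, the calcium sensor of inner hair cell synapses, had the most negative difference of all members. It read 5.76, 5.55, 6.10 and 6.04 in null arrays, against 6.63, 6.55, 6.40 and 6.36 in wild-type arrays. No null array reached the lowest wild-type array, and the means were 5.86 ± 0.25 and 6.48 ± 0.13 (null and wild-type, SD, n = 4 each). The difference was -0.62 (SE 0.14, 95% interval -0.93 to -0.31, unadjusted p = 0.00103, limma adjusted p = 0.66), a ratio of 0.65. Leaving out single arrays moved it between -0.70 and -0.52, and it was -0.27 without background correction. A second Otof probe was not detected on any array. Otof lies on chromosome 5 in RefSeq, as does Ppargc1a. Of the 7 member probes on that chromosome 3 were lower in null arrays, and of its 728 kept probes 376 were. Sytl2, a synaptotagmin-like Rab27 effector, read 9.66, 9.71, 9.54 and 9.64 in null and 9.06, 9.42, 9.17 and 9.55 in wild-type arrays. Only wild-type replicate 4 reached the null range, and the difference was 0.34 (SE 0.13, unadjusted p = 0.0256, limma adjusted p = 0.71). Its dimmer probe differed by 0.16.

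At the active zone, the scaffold genes Rims and Pclo had 6 kept probes between them, 3 higher and 3 lower in null arrays. Rims1, the main RIM of the active zone, read 7.44, 7.72, 7.36 and 7.61 in null and 6.35, 7.29, 7.22 and 7.58 in wild-type arrays. Wild-type replicate 1 stood lowest. The difference was 0.42 (SE 0.22, limma adjusted p = 0.75), and 0.17 without that array. Rims2 and Rims3 differed by -0.02 and -0.16, and the probes of Pclo (piccolo) by -0.13 and 0.08. Bsn, the other large scaffold, was not detected on any array, and Unc13a and Sv2c are not analysed here.

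Rab3 proteins, the GTPases that tether vesicles, and their regulators had 4 of 7 probes higher and a median of 0.04. Rab3a, the main brain form, read 11.34, 11.64, 11.33 and 11.51 in null and 11.62, 11.54, 11.65 and 11.27 in wild-type arrays. Its groups overlapped at a difference of -0.06 (SE 0.13). Rab3c read 5.24, 5.87, 5.77 and 5.53 in null and 5.10, 5.19, 5.52 and 5.11 in wild-type arrays. Wild-type replicate 3 overlapped the null values, and the difference was 0.37 (SE 0.16, unadjusted p = 0.0382, limma adjusted p = 0.71), or 0.12 without background correction. Rab3gap2, the non-catalytic subunit of the Rab3 GTPase-activating complex, read 7.77, 7.73, 7.73 and 7.69 in null and 8.10, 8.02, 7.99 and 8.04 in wild-type arrays. The groups were tight and did not overlap, at 7.73 ± 0.03 in null and 8.04 ± 0.05 in wild-type arrays (SD, n = 4 each). The difference of -0.30 (SE 0.10, unadjusted p = 0.0132, limma adjusted p = 0.70) stayed between -0.32 and -0.28 with any 1 array left out. Its catalytic partner Rab3gap1 differed by -0.08.

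Sv2 genes encode glycoproteins of the vesicle membrane. Sv2b read 10.95, 11.76, 11.21 and 10.94 in null and 10.50, 10.83, 10.92 and 10.80 in wild-type arrays. Every null array exceeded every wild-type array, by as little as 10.94 over 10.92, and null replicate 2 was highest. The difference was 0.45 (SE 0.18, unadjusted p = 0.0316, limma adjusted p = 0.71), and 0.27 without that array. Sv2a read 11.51, 11.90, 11.62 and 11.78 in null and 11.62, 11.84, 11.66 and 11.70 in wild-type arrays, a difference of -0.01 (SE 0.12). Whether Sv2b and Sv2a differ in their response was not tested.

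Synapsins and synaptophysin, abundant proteins of vesicle clusters, had differences under 1 SE. One Syn1 probe read 10.82, 11.41, 10.80 and 11.14 in null and 10.96, 11.29, 11.16 and 11.22 in wild-type arrays, a difference of -0.11 (SE 0.15). The other, at 10.87, 11.83, 10.55 and 11.22 in null and 10.71, 11.44, 11.17 and 11.09 in wild-type arrays, differed by 0.02 (SE 0.25). On both, null replicates 2 and 3 were the highest and the lowest of the null arrays. Syn2 differed by -0.06 (SE 0.13), and Syn3 was not detected on any array. Syp read 11.44, 12.43, 11.23 and 11.69 in null and 11.67, 12.04, 11.78 and 11.74 in wild-type arrays, a difference of -0.11 (SE 0.22). Without null replicate 2 it was -0.35, and without null replicate 3 it was 0.05.

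The name rule also took genes outside release. Rab30 to Rab39, GTPases of the Golgi, endosomes and other membranes, had 7 of 11 probes higher, a median of 0.05 and Rab33a at 0.29 (SE 0.16). Snapc genes, subunits of the complex that starts small nuclear RNA transcription, had 6 of 7 probes higher, a median of 0.08 and Snapc5 at 0.31 (SE 0.18). Neither family had a probe at an unadjusted p under 0.05.

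Probes of one gene did not always point one way. Of 20 genes with several kept probes, 48 probes in all, 9 had one sign and 11 had opposite signs. Vamp8, Vamp3, Syt6, Syt12, Rims1 and Sytl2 were among the 9. Sv2a (-0.0057 and 0.00041) and Syt11 (-0.0070 and 0.015) were among the 11, with differences far under their SE. So were Vamp1, whose lower probe was detected on 4 of 8 arrays, and Stx3, whose 3 probes had mean levels of 4.87 to 5.14, near background. With the brightest probe of each gene, 44 of 69 members were higher in null arrays, against 48.5% of all genes. Of the kept members, 86 were detected on all 8 arrays and 11 on fewer. For the 26 member genes without a kept probe, no difference is given.

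Highest values of members were unevenly spread over the arrays. Null replicate 2 held the highest value of the 8 arrays for 35 of 97 members (36.1%), against 18.4% of all kept probes, and wild-type replicate 1 for 3 (3.09%), against 9.47%. Lowest values fell on null replicate 2 for 20 members (20.6%, against 20.1% of all kept probes) and on wild-type replicate 1 for 14 (14.4%, against 8.63%). Those arrays had the highest and the lowest score of cortical excitatory neuron markers, the mean of 7 measured markers about their own averages. The score was 0.27, 1.30, -0.31 and 0.34 on null arrays, against -1.36, 0.06, -0.50 and 0.20 on wild-type arrays. All 7 markers lay higher in null arrays (median difference 0.71, or 0.41 without null replicate 2). Their summed linear level ranged from 802 to 3966 in null and from 267 to 1215 in wild-type arrays, and Neurod6 and Rtn4rl2 were among those that did not pass detection. The part of these markers in the values of Stx1a, Syt13, Unc13b, Unc13c, Sv2b and Rims1 was not tested. Without null replicate 2 and wild-type replicate 1, Sv2b differed by 0.18, Rims1 by 0.10, Unc13c by -0.05 and Syt13 by -0.01.

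**Figure D3:**
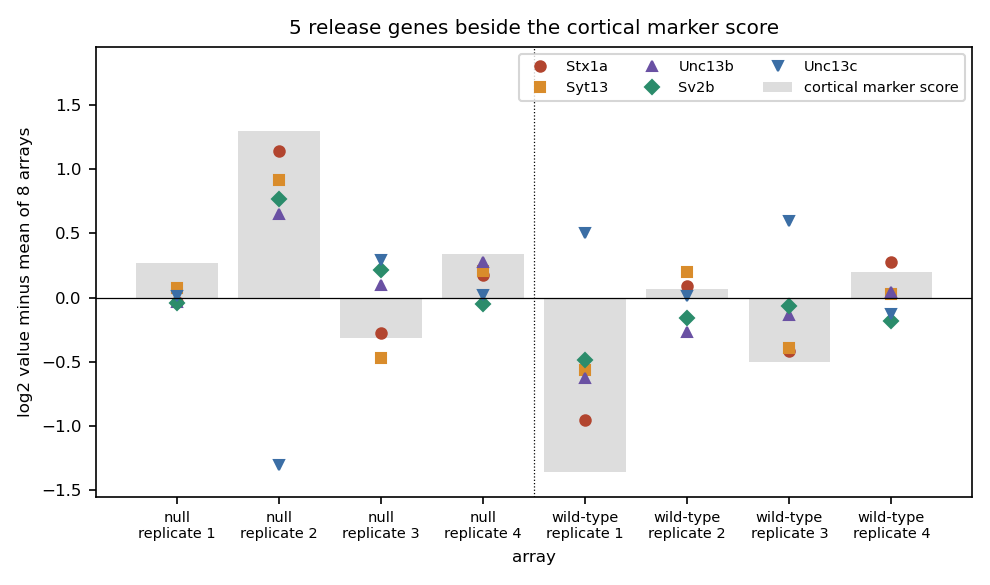
Value of 5 member probes on each array minus the mean of the 8 arrays (points, log2) beside the cortical excitatory neuron marker score (grey bars), for null arrays (left of the dotted line) and wild-type arrays (right). Stx1a, Syt13, Unc13b and Sv2b are highest on null replicate 2 (score 1.30) and lowest on wild-type replicate 1 (score -1.36). Unc13c is lowest on null replicate 2. The 5 were chosen with their values known. Of all 97 members, null replicate 2 was highest for 35 and wild-type replicate 1 lowest for 14.

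Markers of local striatal neurons were mostly lower. Of 15 measured medium spiny neuron markers 14 were lower in null arrays (median -0.30), and 12 without null replicate 2 (median -0.16), with a summed level of 54505 to 81076 in null and 82773 to 94383 in wild-type arrays. All 9 measured cholinergic interneuron markers were lower (median -0.52), at sums of 983 to 1706 in null and 1747 to 2122 in wild-type arrays. All 10 oligodendrocyte markers were higher (median 0.29), but this rested on wild-type replicate 3, without which 3 of 10 were higher (median -0.03). All 7 endothelial markers were lower (median -0.19), with medians between -0.31 without null replicate 4 and -0.09 without null replicate 3. Oligodendrocyte sums were 79489 to 107490 in null and 53312 to 98560 in wild-type arrays. Endothelial sums were 1376 to 1653 in null and 1619 to 1892 in wild-type arrays. Higher in null arrays were also 8 of 10 astrocyte, 6 of 8 microglia and 6 of 8 general neuron markers. With 1 array left out these counts ranged from 7 to 9, 4 to 6 and 4 to 6. Of 4 parvalbumin interneuron markers 3 were lower (median -0.37), with medians between -0.43 and -0.29 when 1 array was left out. The exception was Pvalb itself, which encodes parvalbumin, with a difference of 0.41 (SE 1.13). It read 9.52, 6.43, 5.11 and 9.87 in null and 9.02, 9.26, 5.74 and 5.28 in wild-type arrays. These markers therefore give no one direction for parvalbumin interneurons. The part of all these marker lists in the Vamp, Syt and Otof differences was not tested.

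Other synaptic genes outside the name rule formed a list of 80, with 59 measured. Beside release genes it held genes of vesicle recycling (such as Ap2a1), of the vesicle proton pump (such as Atp6v1a) and of the postsynaptic side (Nlgn1 and Nlgn2). The list had 35 higher and 24 lower, a median difference of 0.04 (0.01 without null replicate 2) and none past the threshold. At an unadjusted p under 0.05 were 2 (3.39%), against 6.96% of all kept genes by their brightest probe. Both were CAPS genes, which prime dense core vesicles. Cadps2 read 9.96, 10.91, 9.52 and 10.35 in null and 8.42, 9.69, 9.00 and 9.90 in wild-type arrays, 0.93 apart (SE 0.34, limma adjusted p = 0.70). Null replicate 2 was again the highest and wild-type replicate 1 the lowest. Cadps read 9.95, 10.35, 9.73 and 10.00 in null and 9.70, 9.77, 9.42 and 9.57 in wild-type arrays, 0.39 apart (SE 0.15, limma adjusted p = 0.70). Only null replicate 3 fell within the wild-type range.

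**Figure D4:**
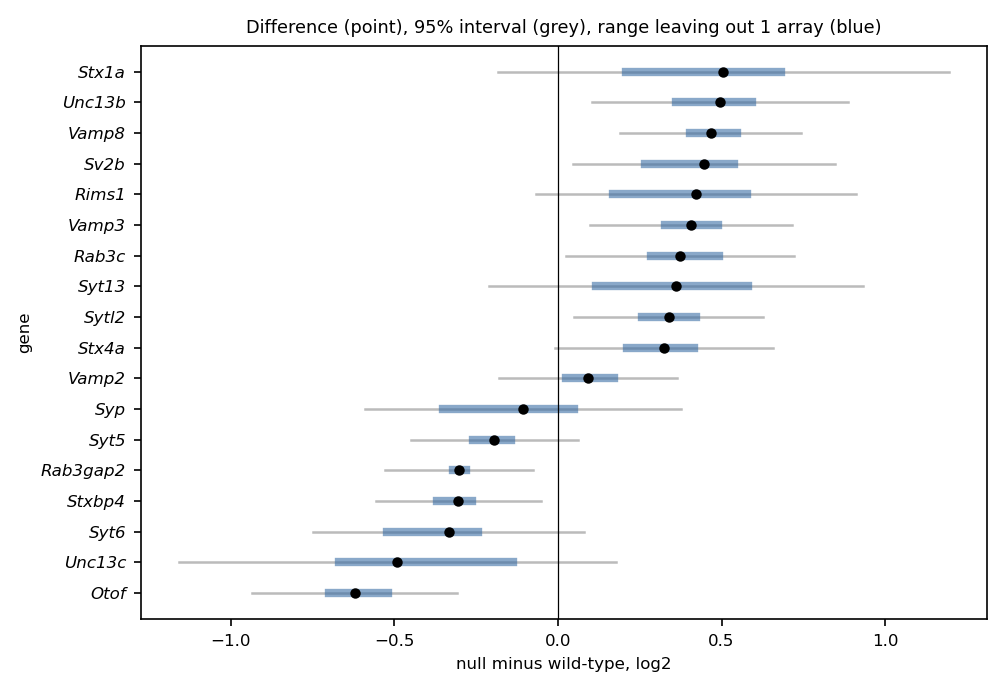
Difference null minus wild-type (log2, horizontal axis) of 18 member genes, each by its probe with the smallest p: black points are differences from all 8 arrays, grey lines 95% intervals, and blue bars the range when 1 array is left out. Rab3gap2 has the narrow range of -0.32 to -0.28, while Stx1a drops to 0.21 and Unc13c nears 0 at -0.14 without null replicate 2.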

How the data were processed

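RNA of mouse striatum was hybridised to Illumina bead arrays, 1 per sample. The table deposited by the authors gives each probe's averaged bead intensity per array and its detection p-value, per the file headers, without normalization between arrays. The authors' processed intensity values, deposited as linear values with a minimum of -18.4, served as an alternative. Beyond GenomeStudio, named in the submitters' processing notes, their making is not given in these sources. Raw intensities were background-corrected from the detection p-values, offset by 16, quantile normalized and put on the log2 scale by the neqc function (limma 3.58.1, R 4.3.3). Probes detected (p under 0.05) on at least 4 of 8 arrays were fitted with lmFit and eBayes, as a two-sided test of null minus wild-type, and p-values were adjusted by Benjamini-Hochberg across the 13413 probes. The median SE of a member was 0.15. The number of arrays limits the precision. In simulated data with noise drawn separately for each probe, the fit recovered 45% of 1.5-fold, 98% of 2-fold and 100% of 4-fold changes. Changes were set in 200 of 13413 probes, and 6 unchanged probes were called. Effects shared by the probes of an array were not simulated, so these shares cannot be carried over to the real arrays.

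Members, lists and named genes were chosen with earlier results of these data known. The rule for names took core release genes, the brightest and most extreme genes of each family, the 8 probes with the smallest p in each direction, probes without overlap and genes whose probes disagree; others named were chosen after their values were seen. Gene symbols come from the array; 93 of 95 matched the RefSeq gene table and 71 had a promoter. Deviations of same-numbered arrays from their group means correlated at 0.087, -0.0037, 0.23 and 0.045 for replicates 1 to 4. Null and wild-type arrays of different numbers correlated between -0.29 and 0.21. The labels give only a number, so numbers were not used as pairs. Alternatives covered background correction, normalization, filters, array weights, the replicate block, left-out arrays, 1 probe per gene and, added after seeing the data, sex, the leaving out of 2 arrays and the marker lists with each array left out. Some items are not reported here.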

Additional observations from a re-analysis of the deposited data

Results flagged for a closer look

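Snapc5, a subunit of the small nuclear RNA activating complex, had 1 wild-type array far from the other 3: wild-type replicate 2 read 5.80 and the next value was 5.35, so the gap took 0.831 of the group's range, just past Dixon's critical value at 95%. Of 138 groups of 4 arrays tested this was the only one, and chance alone puts about 1 in 20 past that value.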

How the results depend on the processing

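The count of members past the threshold was 0 under every alternative run. Their smallest adjusted p of limma lay between 0.39 (array quality weights) and 0.9995 (median centring). At an unadjusted p under 0.05 were between 4 members (median centring) and 14 (array quality weights), against 10 as reported. Of all kept probes, 387 and 1294 were under it in those 2 settings, against 926 as reported. Past the threshold were 0 to 1 of all kept probes with 1 array left out, the 1 without null replicate 4. The median of members ranged between -0.0146 (without null replicate 2) and 0.0488, and was -0.0161 without null replicate 2 and wild-type replicate 1. Family medians with 1 or those 2 arrays left out ranged between -0.21 and -0.0995 for Syt, 0.12 and 0.32 for Vamp, -0.0910 and 0.0920 for Rab3, -0.00130 and 0.12 for Rab30 to Rab39, and 0.0216 and 0.17 for Snapc. Without background correction Otof was at -0.27, Syt at -0.0753 and Vamp at 0.13. With no detection filter, medians over all probes of a family, detected or not, were -0.23 for Otof, whose second probe then enters, -0.0264 for Syt, 0.0502 for Sytl and 0.14 for Vamp. The authors' processed values gave Vamp 0.29. With sex as a covariate, Rab30 to Rab39 were at 0.14, Syt at -0.11 and Vamp at 0.10. With 1 probe per gene, Rab30 to Rab39 were at 0.15 and Sv2 at 0.22. Among the 32 named probes with a difference of at least 1 SE, the sign turned 3 times: a Vamp1 probe with sex as a covariate (-0.000387), and Stx1a (-0.0257, with a highest value of 0.68 when 1 array was left out) and Syt13 (-0.00939, highest 0.58) without those 2 arrays. The other 37 named probes changed sign 85 times. The causes were not tested. With the replicate block, 0 members passed and their smallest limma adjusted p was 0.60. At an unadjusted p under 0.05 were 13 members and 1038 of all kept probes, against 10 and 926 as reported. Samples share only a number, and not every array correlated best with its own number. Probes near background and 4 arrays a group limit what can be seen: the median SE of a member was 0.15.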
